A study of Homo sapiens with 12 samples.

Results

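The genes described here are the LIN28 genes (LIN28A and LIN28B), the host genes of 3 let-7 microRNA loci (MIRLET7BHG, MIRLET7A1HG and MIRLET7IHG) and 4 let-7 target genes (HMGA2, IGF2BP1, IGF2BP2 and IGF2BP3). They are 9 of the 60483 genes counted in total RNA, taken by name from the gene count files. The mut cells were HEK293 cells, an established human embryonic kidney line, engineered by Flp-In T-REx integration to make a catalytic mutant of the exoribonuclease DIS3L2. The WT cells were the same line producing wild-type DIS3L2. In both, the DIS3L2 coding sequence was recoded and FLAG-tagged, and its plasmid also carried sh-miRNAs that silence endogenous DIS3L2, so the silencing is common to mut and WT. Both were induced with 100 ng/ml doxycycline for 3 days. There were 3 mut and 3 WT libraries of total RNA and as many of small RNA. The labels do not say that replicates were separate cultures, or how many cell lines stood for each variant, so the p-values speak of library-to-library spread alone, and that spread may be technical.

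DIS3L2 belongs to a pathway that sets the amount of let-7. LIN28 proteins bind the terminal loop of let-7 precursors. LIN28A recruits the terminal uridylyltransferases TUT4 and TUT7, which add a uridine tail, and DIS3L2 digests the tailed precursor from its 3′ end. Whether LIN28B acts by this route in these cells was not tested. Mature let-7 represses mRNAs of growth and embryonic genes, among them HMGA2, the IGF2BP family and LIN28B itself. Germline loss of DIS3L2 causes Perlman syndrome, an overgrowth disorder with a high risk of Wilms tumour.

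The mature let-7 sequences are shown because they define the targets and the hairpins because they are the RNA on which LIN28 and DIS3L2 act. The sequences are from RefSeq (GRCh38.p14), and all 12 let-7 family hairpins were found there. The 9 distinct mature sequences share 1 seed (bases 2 to 8, in capitals), as these, encoded within the 3 host genes, show.
hsa-let-7a-5p: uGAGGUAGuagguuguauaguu
hsa-let-7b-5p: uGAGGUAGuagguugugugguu
hsa-let-7d-5p: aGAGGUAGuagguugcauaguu
hsa-let-7f-5p: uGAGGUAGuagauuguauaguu
hsa-let-7i-5p: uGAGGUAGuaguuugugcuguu
The hairpins of the 3 host genes differ in the GGAG motif, which is known as a contact of the LIN28 zinc knuckles and is in capitals here.
MIRLET7A1: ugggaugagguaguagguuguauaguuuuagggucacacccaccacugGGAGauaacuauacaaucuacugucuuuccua
MIRLET7F1: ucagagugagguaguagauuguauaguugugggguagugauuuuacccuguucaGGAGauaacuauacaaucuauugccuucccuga
MIRLET7D: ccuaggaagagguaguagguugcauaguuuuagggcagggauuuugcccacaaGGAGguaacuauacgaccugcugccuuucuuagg
MIRLET7I: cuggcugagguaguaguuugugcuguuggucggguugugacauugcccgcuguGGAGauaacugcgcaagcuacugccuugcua
MIRLET7A3: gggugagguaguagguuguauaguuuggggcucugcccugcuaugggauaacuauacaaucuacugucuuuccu
MIRLET7B: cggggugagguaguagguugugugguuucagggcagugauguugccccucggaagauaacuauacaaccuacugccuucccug
The letters GGAG, searched in the RNA strand, occurred in 9 of the 12 let-7 family hairpins, against 43.4% of all 1562 RefSeq hairpins. The 3 without them were MIR98 and the pair in MIRLET7BHG, MIRLET7A3 (chr22:46112749-46112822) and MIRLET7B (chr22:46113686-46113768). MIRLET7A1 (chr9:94175957-94176036), MIRLET7F1 (chr9:94176347-94176433) and MIRLET7D (chr9:94178834-94178920) lie in MIRLET7A1HG, and MIRLET7I (chr12:62603686-62603769) lies in MIRLET7IHG. All 6 are on the plus strand. A match of letters is a description of the sequence and not of binding.

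Of the 9 genes, 8 had enough reads to be tested. IGF2BP1 was higher in mut cells, LIN28B, MIRLET7BHG, MIRLET7IHG, HMGA2 and IGF2BP3 were lower, and MIRLET7A1HG and IGF2BP2 did not pass the test (edgeR quasi-likelihood test, Benjamini-Hochberg adjusted p under 0.05). Across the 14409 tested genes, 13.0% passed as higher and 14.2% as lower in mut cells (27.2% in either direction). For the same 6 genes every mut library lay on one side of every WT library, which held for 19.4% of all tested genes with mut above and 21.2% with mut below. DESeq2 called IGF2BP1 higher and HMGA2 and IGF2BP3 lower, where it called 8.47% of genes higher and 8.82% lower. The median log2 fold change of the 8 genes was −0.24, against −0.01 over all tested genes. Apart from MIRLET7IHG, no fold change was larger than 0.30 on the log2 scale, and HMGA2, IGF2BP1 and IGF2BP3 alone of the 6 kept their call under all 12 alternative settings.

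**Figure D1:**
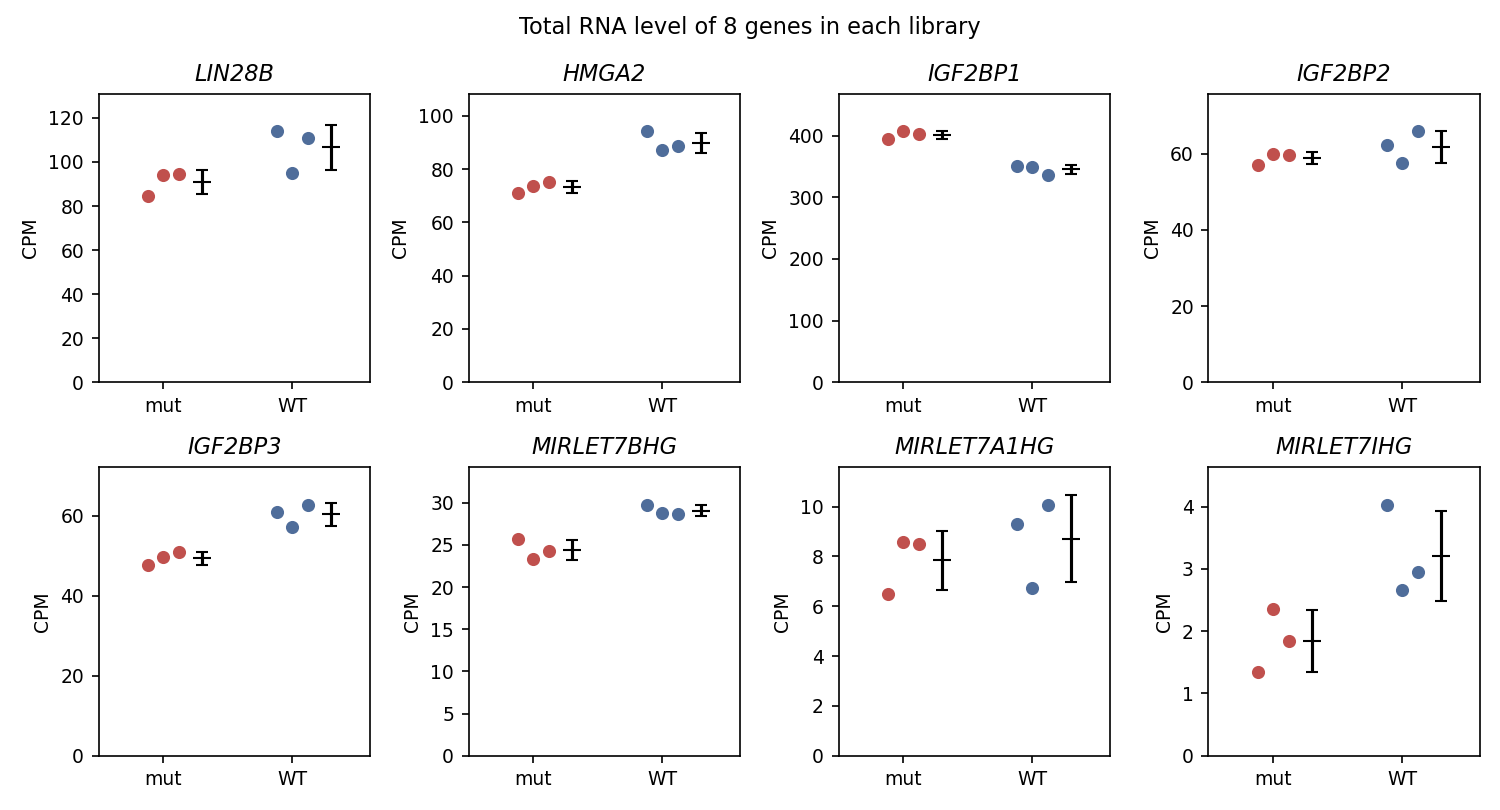
CPM (counts scaled to library size, with TMM factors) in each total RNA library of 8 genes, with mut libraries in red and WT libraries in blue; black bars are the mean ± SD (n = 3). The mut points lie above the WT points for IGF2BP1, overlap them for IGF2BP2 and MIRLET7A1HG, and lie below them for the other 5 genes.

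The libraries held 8467957 to 9009114 counts in genes in mut and 8315986 to 12675042 in WT. DIS3L2 was at 1092 ± 51.7 CPM in mut cells and 784.5 ± 25.8 CPM in WT cells (SD, n = 3), which may sum transgene and endogenous transcripts and does not test the silencing. Of 6 neural and renal progenitor genes known in HEK293 cells, 4 were tested. NEFL, INA and SYP were higher in mut, LHX1 did not pass (edgeR adjusted p = 0.119), and PAX2 and NEFM had too few reads. The summed level of the 6 genes was 177 to 188 CPM in mut cells and 123 to 131 CPM in WT cells. Most of it was NEFL, at 126.1 ± 9.09 CPM in mut cells and 88.3 ± 5.49 CPM in WT cells (SD, n = 3). All 4 epithelial markers were higher in mut, summing to 358 to 374 CPM against 294 to 325 CPM in WT. The edgeR adjusted p was 4.64e-06 for EPCAM, 0.0279 for KRT18, 0.0415 for CDH1 and 0.0422 for KRT8. Fibroblast markers summed to 4.48 to 6.70 CPM in mut cells and 2.58 to 3.52 CPM in WT cells, with 2 of 5 higher and COL1A2 and DCN at 0. The higher ones were COL3A1 (edgeR adjusted p = 0.00113) and, with overlapping libraries, COL1A1 (edgeR adjusted p = 0.0332). Pluripotency markers summed to 11.0 to 12.9 CPM in mut cells and 12.7 to 13.6 CPM in WT cells, with the 1 tested gene, SOX2, not past the test and DPPA4 at 0. The 4 blood markers held 0 counts in mut and 3 in WT. These marker calls are from the main edgeR fit alone, in which 13.0% of all tested genes were higher. The part of these marker differences in the results below was not tested. In bulk RNA, fewer cells with a transcript and less transcript per cell cannot be told apart.

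Of the LIN28 genes, LIN28B was the one detected beyond a single read. LIN28A (ENSG00000131914.9, chr1:26410817-26429728) had 1 count in the third mut library and 0 in the other 5 libraries. In WT that is 0 of 30602314 counts, which allows up to 0.098 CPM (unscaled by TMM, counting error only), and LIN28A was not tested. The 20 nearest tested protein-coding genes around LIN28A, 10 on each side, had a median log2 fold change of 0.03, with 1 higher and 1 lower. The nearest were CRYBG2 at 1.08 and DHDDS at −0.17, which did not pass (edgeR adjusted p = 0.0732 and 0.119, and for CRYBG2 0.049 and 0.0192 when mut library 2 or WT library 3 was left out).

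LIN28B (ENSG00000187772.6, chr6:104937026-105083332) had 84.5, 94.1 and 94.3 CPM in mut libraries, against 114, 95.1 and 110.7 CPM in WT libraries. The groups were separated only by the narrow gap between the third mut library and the second WT library. The mean was 91.0 ± 5.59 CPM in mut cells and 106.6 ± 10.1 CPM in WT cells (SD, n = 3), and the log2 fold change was −0.22 (SE 0.07, 95% interval −0.37 to −0.07, edgeR adjusted p = 0.0234). The call was lost in DESeq2 (adjusted p = 0.0535) and when mut library 1, WT library 1 or WT library 3 was left out (edgeR adjusted p = 0.114, 0.153 and 0.140).

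LIN28B spans 146 kb, and long genes were lower as a class. Among tested protein-coding genes over 100 kb in span, 25.0% were lower and 9.50% higher in mut, with a median of −0.10, while for shorter ones 12.4% were lower and 14.1% higher, with a median of 0.01. With that trend on span taken out of each library, LIN28B stood at −0.14 (edgeR adjusted p = 0.109). The genes around it were also low. Of its 20 neighbours 8 were lower and 2 higher, with a median of −0.18, and HACE1, the ubiquitin ligase gene on one side, was at −0.42 (edgeR adjusted p = 0.000882), with POPDC3 on the other at 0.05 (adjusted p = 0.796). The part of span and position in the LIN28B value was not tested.

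The let-7 host genes are long noncoding or primary transcripts from which let-7 hairpins are cut. Their counts were low, and MIRLET7BHG and MIRLET7IHG were lower in mut cells. MIRLET7BHG (ENSG00000197182.11, chr22:46085997-46113928), the host of MIRLET7A3 and MIRLET7B, had 230, 199 and 211 counts in the mut libraries, against 288, 368 and 233 in the WT libraries. Scaled for library size these were 25.7, 23.4 and 24.2 CPM in mut, against 29.8, 28.8 and 28.6 CPM in WT. All mut libraries were below all WT libraries, and the spread within each group was small. The log2 fold change was −0.25 (SE 0.09, 95% interval −0.43 to −0.07, edgeR adjusted p = 0.0331). DESeq2 gave adjusted p = 0.158, the unfiltered fit 0.0529, and the edgeR call held without mut library 1 but was lost without any other single library (0.0519 to 0.113).

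Of the 20 neighbours of MIRLET7BHG 1 passed the test, as higher, and their median was 0.05. The Wnt ligand gene WNT7B and the nuclear receptor gene PPARA on either side were at −0.31 and −0.26 (edgeR adjusted p = 0.494 and 0.0684, and 0.0142 for PPARA when mut library 2 was left out). Among those 20, 3 had a fold change below that of MIRLET7BHG.

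MIRLET7IHG (ENSG00000257354.2, chr12:62602743-62622214), the host of MIRLET7I, had the lowest counts of the 8 tested genes. It had 12, 20 and 16 counts in the mut libraries, against 39, 34 and 24 in the WT libraries. The mean was 1.84 ± 0.50 CPM in mut cells and 3.21 ± 0.72 CPM in WT cells (SD, n = 3), with all mut libraries below all WT libraries. The log2 fold change was −0.79 (SE 0.27, 95% interval −1.34 to −0.24, edgeR adjusted p = 0.0283). DESeq2 gave −0.80 with adjusted p = 0.162, and the edgeR call was lost when mut library 1 or 3 or WT library 1 or 3 was left out (adjusted p = 0.152, 0.0745, 0.168 and 0.0507).

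Of the 20 neighbours of MIRLET7IHG 8 passed the test, all as lower, with a median of −0.17, and 1 of them was lower than MIRLET7IHG itself. MON2, a gene of endosome to Golgi traffic on one side, was at −0.37 (edgeR adjusted p = 0.00045), and the phosphatase gene PPM1H on the other was at 0.01 (adjusted p = 0.931). LINC01465 (ENSG00000221949.5, chr12:62601751-62603434), a noncoding gene that overlaps the start of MIRLET7IHG and was picked out after its values were seen, had 16, 12 and 15 counts in the mut libraries, against 7, 8 and 10 in the WT libraries. Its log2 fold change was 0.99 (SE 0.36, edgeR adjusted p = 0.0392), and DESeq2 gave adjusted p = 0.236, the unfiltered edgeR fit 0.058 and the fit with the span trend removed 0.0544. That edgeR call was lost when mut library 1 or 3 or WT library 1 or 2 was left out (adjusted p up to 0.172). The libraries were made strand-specific, but the strand setting of the counting is not stated in the sources used here, so reads of the 2 genes may not be fully separated.

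MIRLET7A1HG (ENSG00000269929.1, chr9:94166258-94200905), the host of MIRLET7A1, MIRLET7F1 and MIRLET7D, did not pass the test. It had 58, 73 and 74 counts in the mut libraries, against 90, 86 and 82 in the WT libraries. After scaling, these were 6.48, 8.57 and 8.503 CPM in mut, against 9.31, 6.73 and 10.1 CPM in WT. The groups overlapped, since the second WT library was low. The log2 fold change was −0.12 (SE 0.16, edgeR adjusted p = 0.629), with a 95% interval of −0.45 to 0.22 that holds both no change and a fall as deep as that of MIRLET7BHG. Its neighbours had a median of −0.11, with 1 higher and 2 lower of 20. PTPDC1 and ZNF169, a phosphatase gene and a zinc finger gene on either side, were at −0.19 and −0.17 (adjusted p = 0.239 and 0.554).

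The other let-7 hairpins lie in other host genes. The list of other hosts held 6 names, of which 4 were tested. Neither edgeR nor DESeq2 called any of them, and the smallest unadjusted edgeR p among the 4 was 0.0689. WDR82, the host of MIRLET7G, was at 118.2 ± 0.54 CPM in mut cells and 128.1 ± 6.27 CPM in WT cells (log2 fold change −0.12, edgeR adjusted p = 0.164). HUWE1, which holds MIR98 and MIRLET7F2, was at −0.03, SPACA6 at −0.05 and MIR99AHG at −0.28 (edgeR adjusted p = 0.768, 0.926 and 0.274). Their signs were stable for WDR82 and MIR99AHG alone, and MIR99AHG passed when mut library 2 was left out (−0.53, adjusted p = 0.0463). The median was −0.09. MIR100HG had 0 counts in all 6 libraries. The list also named MIRLET7DHG, which was not matched by its symbol, though MIRLET7D lies in MIRLET7A1HG as given above.

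HMGA2 (ENSG00000149948.12, chr12:65824460-65966291), which encodes an architectural chromatin protein of embryonic cells and is a classic let-7 target, was lower in mut cells. It had 70.9, 73.6 and 75.2 CPM in mut libraries, against 94.2, 87.1 and 88.5 CPM in WT libraries. The groups were well apart and each varied little. The mean was 73.2 ± 2.15 CPM in mut cells and 89.9 ± 3.78 CPM in WT cells (SD, n = 3), and the log2 fold change was −0.30 (SE 0.07, 95% interval −0.43 to −0.16, edgeR adjusted p = 0.00155). DESeq2 gave −0.29 (adjusted p = 0.00272).

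HMGA2 spans 142 kb, and with the span trend removed it stood at −0.21, still past the test. Of its 20 neighbours 7 passed the test, all as lower, with a median of −0.15, and 3 of them were lower than HMGA2. LLPH, a nucleolar protein gene on one side, was at −0.28 (edgeR adjusted p = 0.0302, lost in DESeq2 and also when mut library 1 or 3 or WT library 1 or 3 was left out, with adjusted p up to 0.150). MSRB3, a methionine sulfoxide reductase gene on the other, was at −0.05 (adjusted p = 0.732). Transcripts that overlap HMGA2 were nearly absent. The pseudogene RPSAP52 had 2, 0 and 2 counts in mut and 0 in each WT library, and HMGA2-AS1 had 0, 2 and 1 in mut and 2, 0 and 1 in WT.

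The IGF2BP genes encode RNA-binding proteins that stabilise and transport mRNAs in embryonic and tumour cells, and all 3 are regarded as let-7 targets. In these cells they did not move together. IGF2BP1 was higher, IGF2BP3 lower, and IGF2BP2 did not pass the test.

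IGF2BP1 (ENSG00000159217.8, chr17:48996558-49056145) had 394.9, 407.4 and 403.1 CPM in mut libraries, against 350.7, 349.2 and 336.7 CPM in WT libraries. Every mut library was above every WT library by a margin wider than the spread within either group. The mean was 402 ± 6.34 CPM in mut cells and 346 ± 7.69 CPM in WT cells (SD, n = 3), and the log2 fold change was 0.22 (SE 0.05, 95% interval 0.11 to 0.33, edgeR adjusted p = 0.00323). Of its 20 neighbours 1 was higher and 3 were lower, with a median of −0.05, and 18 had a fold change below that of IGF2BP1. ZNF652, a zinc finger gene on one side, was at −0.23 (adjusted p = 0.0158, lost when mut library 1 or 3 or WT library 3 was left out, with adjusted p up to 0.0903), and the ESCRT gene SNF8 on the other at −0.02 (adjusted p = 0.891).

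IGF2BP3 (ENSG00000136231.12, chr7:23310209-23470491) had 47.7, 49.7 and 50.9 CPM in mut libraries, against 61.0, 57.2 and 62.8 CPM in WT libraries. The mut libraries were all below the WT libraries. The mean was 49.4 ± 1.63 CPM in mut cells and 60.4 ± 2.83 CPM in WT cells (SD, n = 3), and the log2 fold change was −0.28 (SE 0.07, 95% interval −0.43 to −0.14, edgeR adjusted p = 0.00442). It spans 160 kb and stood at −0.20 with the span trend removed, still past the test. Of its 20 neighbours 3 passed the test, all as lower, with a median of −0.11, and 1 was lower than IGF2BP3. The mitochondrial ribosome assembly gene MALSU1, which overlaps its end, was at −0.11, and the splicing factor gene TRA2A on the other side at 0.02 (adjusted p = 0.480 and 0.871). The counting strand is not known here either, so reads of IGF2BP3 and MALSU1 may not be fully separated where they overlap.

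IGF2BP2 (ENSG00000073792.14, chr3:185643130-185825042) had 57.2, 59.9 and 59.6 CPM in mut libraries, against 62.2, 57.6 and 66.0 CPM in WT libraries. The mut libraries lay within the range of the WT libraries, apart from the first, which was lowest of all by a little. The log2 fold change was −0.07 (SE 0.07, edgeR adjusted p = 0.529), with a 95% interval of −0.22 to 0.08. Its sign was not fixed, since the value was 0.02 with the span trend removed. Its neighbours had a median of −0.09, with 2 higher, one of them the adjacent SUMO protease gene SENP2 (0.22, adjusted p = 0.0386), and 3 lower. That SENP2 call was lost in DESeq2, with no filter and also when mut library 2 or 3 or WT library 1 or 3 was left out (adjusted p up to 0.144). TRA2B, a splicing factor gene on the other side, was at −0.10 (adjusted p = 0.207).

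**Figure D2:**
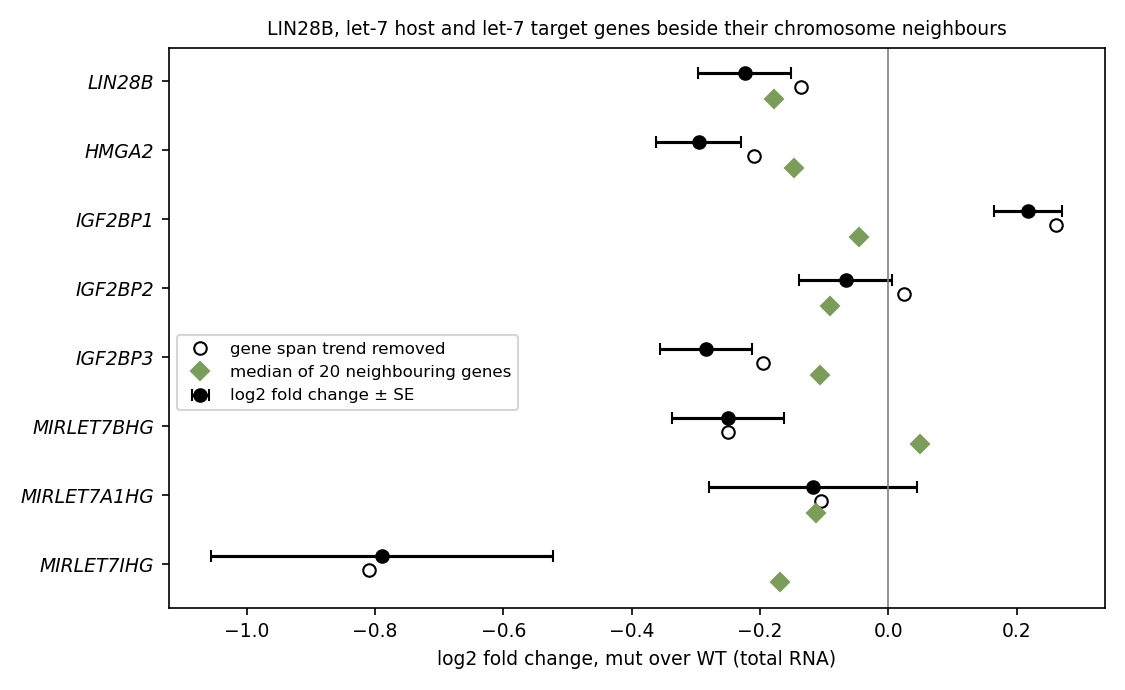
Log2 fold change, mut over WT, in total RNA for 8 genes (filled circles, bars ± SE), the same with the trend on gene span removed (open circles) and the median of the 20 nearest tested protein-coding genes of each (diamonds). IGF2BP1 stands at 0.22 with a neighbour median of −0.05, MIRLET7BHG at −0.25 with a neighbour median of 0.05, and LIN28B at −0.22 beside a neighbour median of −0.18.

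Ratios within a library do not depend on its depth or scaling, and 3 were computed. The trend on gene span was not taken out of them, and IGF2BP1 spans 60 kb, IGF2BP2 182 kb and IGF2BP3 160 kb. With that trend removed in edgeR, the log2 fold changes of these genes were 0.26, 0.02 and −0.20. The ratio of IGF2BP1 to IGF2BP3 counts was 8.28, 8.20 and 7.92 in mut libraries, against 5.75, 6.10 and 5.36 in WT libraries. The lowest mut ratio was above the highest WT ratio, and the means differed by 0.51 on the log2 scale (two-sided exact permutation p = 0.1, the smallest that 3 against 3 allows, 0.15 adjusted over the 3 ratios). This separation follows from the values of IGF2BP1 and IGF2BP3 above, each apart in opposite directions, and is not a further result. The ratio of IGF2BP1 to IGF2BP2 counts was 6.91, 6.80 and 6.76 in mut libraries, against 5.63, 6.07 and 5.10 in WT libraries. Here too the groups were apart, with a difference of 0.29 on the log2 scale (exact permutation p = 0.1, adjusted p = 0.15). This ratio uses the same IGF2BP1 values and is not a further result either.

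LIN28B and HMGA2, a let-7 inhibitor and a let-7 target, were both lower in mut cells, and the ratio of their counts was 1.19, 1.28 and 1.25 in mut libraries, against 1.21, 1.09 and 1.25 in WT libraries. The groups overlapped, and the means differed by 0.07 on the log2 scale (exact permutation p = 0.4, adjusted p = 0.4). Each ratio is one of read counts and not of molecules, since exon lengths were not used.

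**Figure D3:**
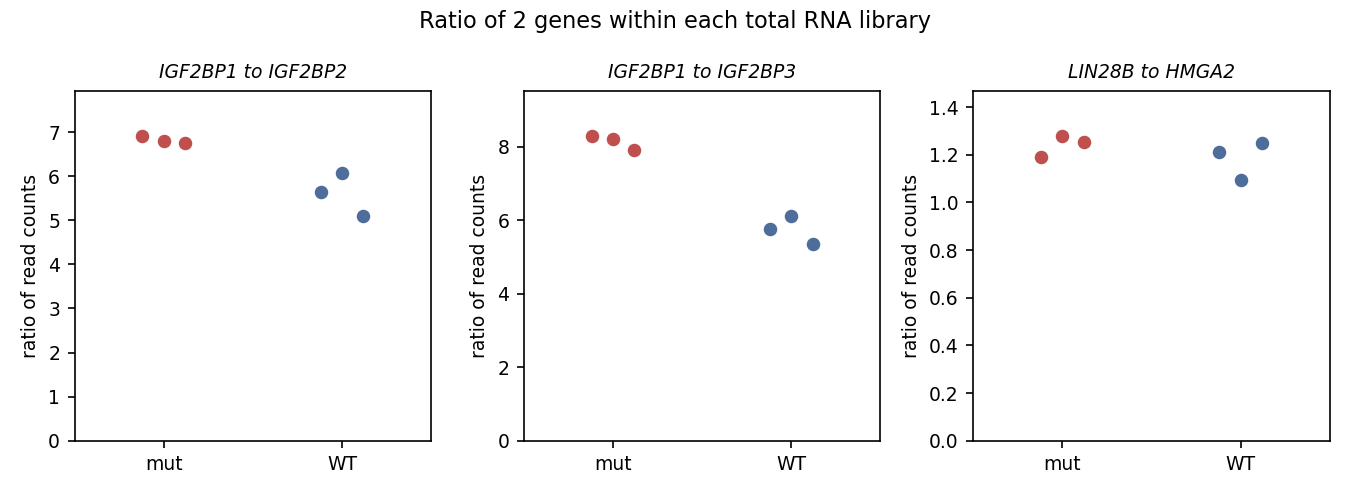
Ratio of the read counts of 2 genes within each total RNA library, with mut in red left of WT in blue. The ratio of IGF2BP1 to IGF2BP2 and to IGF2BP3 is higher in all 3 mut libraries than in any WT library, and the ratio of LIN28B to HMGA2 overlaps between the groups.

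The genes whose log2 CPM followed LIN28B most closely over the 6 libraries were ERGIC2, TMEM192 and NUSAP1, with Pearson r of 0.9994, 0.996 and 0.994. Their log2 fold changes were −0.22, −0.17 and −0.16, close to that of LIN28B, though ERGIC2 alone of the 3 passed the test (edgeR adjusted p = 0.0330, with 0.0227 for NUSAP1 when WT library 2 was left out), a call lost in DESeq2 and also when mut library 1 or 3 or WT library 1 or 3 was left out (adjusted p up to 0.187). For HMGA2 they were WASL, AMD1 and HIPK2, with r of 0.9975, 0.997 and 0.996, and all 3 were lower (−0.37, −0.36 and −0.40, edgeR adjusted p = 0.000461, 4.52e-05 and 8.55e-05). These are the highest of 14409 genes over only 6 libraries that share 2 groups, and are given as a description.

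Genes that act on let-7 precursors changed in both directions. All 22 listed were tested, and 3 (13.6%) were higher and 5 (22.7%) lower in mut, with a median of −0.06, against 13.0% and 14.2% of all genes. The lower ones included the enzymes that tail the precursor. TUT4 was at 87.9 ± 3.00 CPM in mut cells and 111 ± 8.63 CPM in WT cells, with log2 fold change −0.34 and SE 0.07 (edgeR adjusted p = 0.000612). TUT7 was at 31.2 ± 3.54 CPM in mut cells and 45.4 ± 4.57 CPM in WT cells, with log2 fold change −0.53 and SE 0.09 (adjusted p = 9.79e-05). For both, all mut libraries were below all WT libraries.

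TENT2, a terminal nucleotidyltransferase that adds single nucleotides to small RNAs, was at −0.42 (edgeR adjusted p = 5.94e-05). DICER1, which cuts the precursor to the mature length and is itself a let-7 target, was at −0.23 (adjusted p = 0.0107), but its libraries overlapped and the call was lost when mut library 1, WT library 1 or WT library 3 was left out (adjusted p up to 0.108). The higher ones were DIS3L2 (0.48), TARBP2, a partner of Dicer (0.41, edgeR adjusted p = 0.000155), and the helicase DHX9 (0.28, adjusted p = 0.00034). DIS3L2, which the count of 3 higher genes includes, is the gene engineered in these cells, and its counts may include the transgene. The RNA-binding protein gene SYNCRIP was the other one that fell (−0.17, edgeR adjusted p = 0.0348), a call lost when mut library 1 or WT library 1 or 3 was left out (up to 0.214), and the 14 left, which include the genes of nuclear cleavage and export, did not pass.

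Among let-7 targets other than the 4 above, the direction was mixed. Of 39 listed, 36 were tested, and 7 (19.4%) were higher and 6 (16.7%) lower in mut, against 13.0% and 14.2% of all genes. The median of the 36 was −0.03. The higher ones with the smallest adjusted p were THBS1, ARID3B, IGF1R and CDC25A. THBS1, an extracellular matrix glycoprotein gene, had 32, 32 and 26 counts in the mut libraries, against 13, 13 and 14 in the WT libraries, with log2 fold change 1.38 and SE 0.27 (edgeR adjusted p = 0.000348). ARID3B, a chromatin factor, was at 27.5 ± 0.59 CPM in mut cells and 19.9 ± 1.29 CPM in WT cells (0.46, adjusted p = 0.000475). The growth factor receptor gene IGF1R and the cell cycle phosphatase gene CDC25A were at 0.35 and 0.24 (adjusted p = 0.000711 and 0.00289).

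The lower targets with the smallest adjusted p were CCND1, CCND2, FIGN and DICER1. CCND1, which encodes cyclin D1, had 77.5, 75.5 and 70.3 CPM in mut libraries, against 106.1, 108.1 and 108.0 CPM in WT libraries. No library came near the other group, and the log2 fold change was −0.53 (SE 0.07, edgeR adjusted p = 1.25e-06). CCND2, which encodes cyclin D2, was at −0.26 and the microtubule-severing gene FIGN at −0.55 (adjusted p = 0.0011 and 0.00446). MYC was at 82.9 ± 0.80 CPM in mut cells and 85.7 ± 5.15 CPM in WT cells, with overlapping libraries (−0.05, adjusted p = 0.606). MYCN, PLAGL1 and FIGNL2 had too few reads to be tested.

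The IGF axis, to which the IGF2BP proteins are tied through the mRNA of IGF2, had 12 of 16 genes tested, with 2 higher and 2 lower (16.7% each, against 13.0% and 14.2% of all genes) and a median of 0.03. Besides IGF1R, the binding protein gene IGFBP5 was higher, at 33.2 ± 2.49 CPM in mut cells and 27.0 ± 0.25 CPM in WT cells (0.30, edgeR adjusted p = 0.0106, or 0.0565 in DESeq2). PIK3CA, the catalytic subunit of PI3-kinase, was lower, at 24.4 ± 3.27 CPM in mut cells and 38.1 ± 1.98 CPM in WT cells (−0.64, adjusted p = 1.23e-05). IGF2 had 8, 7 and 5 counts in the mut libraries, against 8, 6 and 3 in the WT libraries, too few for a test, as were those of H19, IGFBP3 and IGFBP4.

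**Figure D4:**
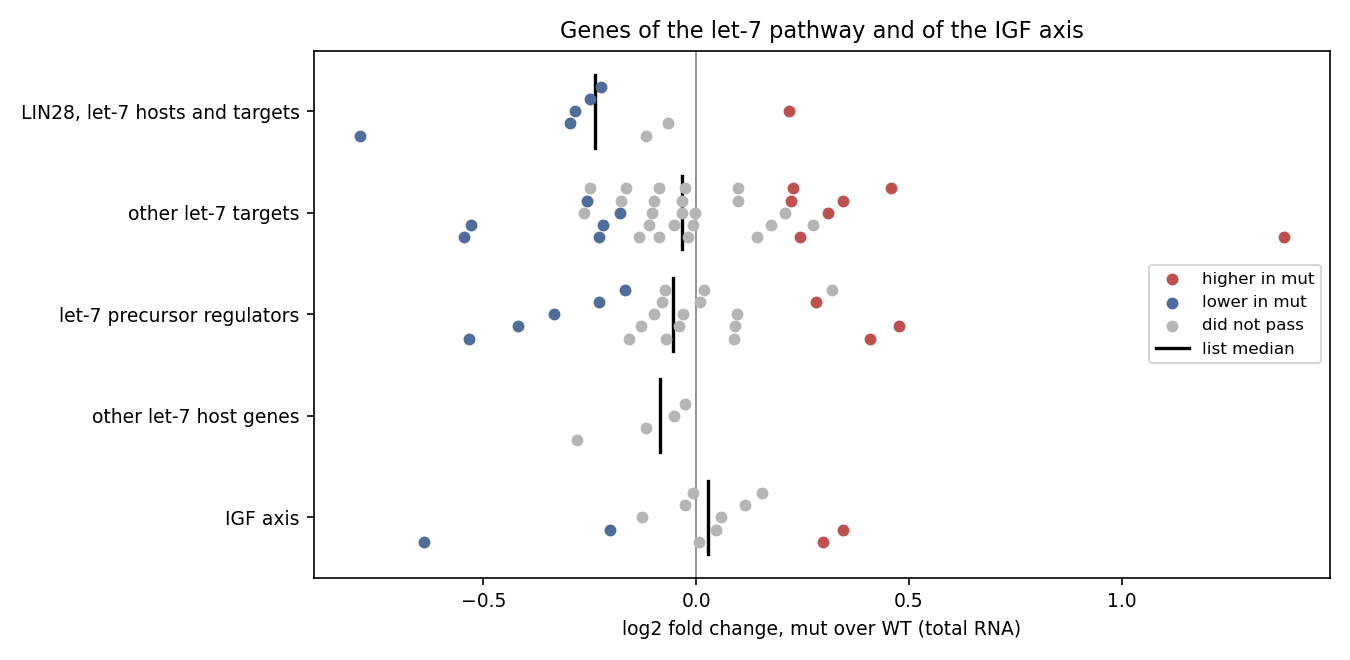
Log2 fold change, mut over WT, of each tested gene in the LIN28 and let-7 group and in 4 related lists, coloured by whether the gene was higher in mut, lower in mut or did not pass; black lines are list medians. The precursor regulators and the other let-7 targets hold genes on both sides of 0, with medians of −0.06 and −0.03.

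The small RNA libraries held few let-7 fragments. Gel selection kept inserts of 20 to 200 nt, and mature let-7 is 22 nt long, near the lower limit. Library totals were 723919, 1219718 and 503699 fragments in mut and 515938, 493314 and 585737 in WT. Of the 12 let-7 family features, 8 had any fragment, and MIRLET7A1, MIRLET7A2, MIRLET7F2 and MIRLET7G had 0. Mature let-7a has the same sequence in MIRLET7A1, MIRLET7A2 and MIRLET7A3, as has mature let-7f in MIRLET7F1 and MIRLET7F2. Mature fragments of these cannot be placed at 1 locus by sequence, so their counts are not levels of each locus. The fragment counts do not tell mature from precursor RNA. No let-7 feature passed the count filter, below which no feature with fewer than 67 fragments in all was tested. Of the 559 features tested, 0.179% (1 feature, not of the let-7 family) passed edgeR.

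Summed over the 12 features, mut libraries had 11, 9 and 5 fragments, against 7, 0 and 2 in WT libraries. The ranges overlapped. The 25 mut fragments were 10.2 FPM (fragments scaled to library size, 95% exact Poisson interval 6.61 to 15.1) and the 9 WT fragments 5.64 FPM (2.58 to 10.7), a ratio of 1.81 with an exact interval of 0.817 to 4.41. These intervals cover counting error only. The value depended on single WT libraries, since WT library 1 held 7 of the 9 WT fragments and WT library 2 held 0. The ratio was 5.51 (1.37 to 48.0) without WT library 1 and 1.25 (0.565 to 3.04) without WT library 2. Without any other library it was 1.44 to 2.31, with intervals that all held 1. MIRLET7B had 5, 3 and 0 fragments in mut and 5, 0 and 0 in WT, and MIRLET7F1 3, 1 and 1 in mut and 2, 0 and 1 in WT. MIRLET7I had 1, 2 and 2 fragments in mut and 0 in each WT library, where its host transcript was the higher one. In the edgeR fit with no filter on counts it had the smallest adjusted p of the family (0.757, from an unadjusted 0.0656).

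**Figure D5:**
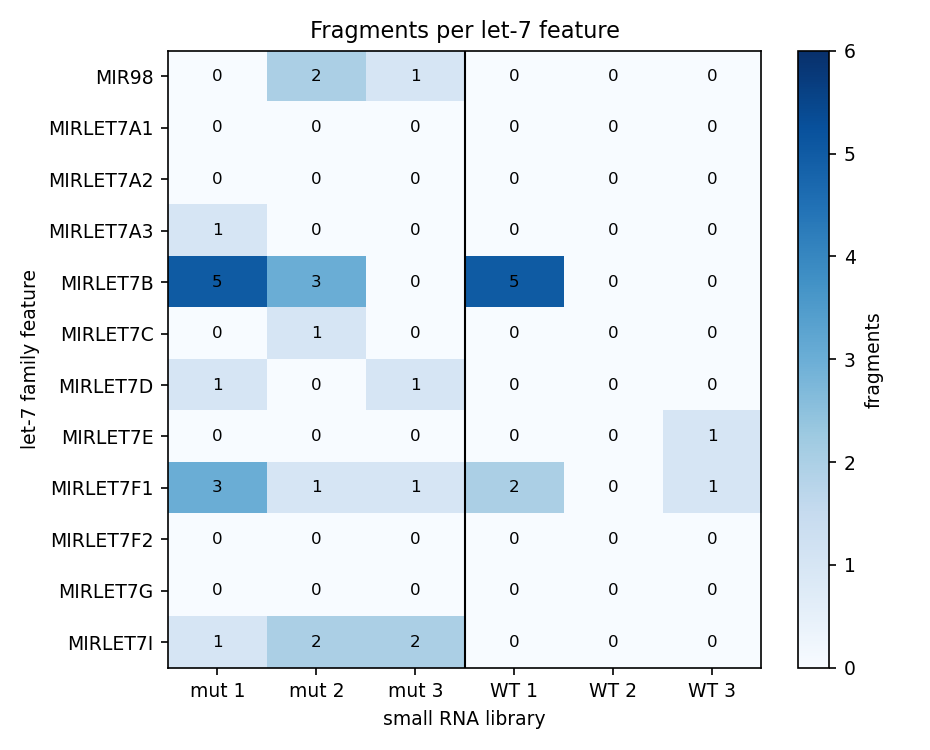
Fragments of each of the 12 let-7 family features (rows) in each small RNA library (columns, mut left of WT); darker blue marks more fragments and each cell gives the number. The highest number in any cell is 5, for MIRLET7B in mut library 1 and in WT library 1, and 4 features are at 0 throughout.

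The let-7 hairpin genes also had few reads in the total RNA counts. Over the 10 that had a row matched by symbol, mut libraries had 15, 14 and 9 counts, against 8, 21 and 12 in WT libraries. The sums of 38 in mut and 41 in WT gave a ratio per depth of 1.08 (95% exact interval 0.675 to 1.72), and of 0.92 to 1.30 with a library left out, so its direction was not fixed. MIRLET7I had 1, 2 and 0 counts there in mut and 1, 3 and 3 in WT.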

How the data were processed

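Total RNA was rRNA-depleted and made into strand-specific libraries, per the labels' protocols. The authors deposited raw read counts per Ensembl gene for each total RNA library. For small RNA the authors deposited fragment counts per feature, a depth-scaled signal (FPM) and FPKM. The submitters' processing notes name STAR 2.4.0, HTSeq 0.6.1 and DESeq2 1.8.2 without their roles, and build hg38. Neither annotation version nor counting strand is stated in the sources used here. Reads assigned to no gene, 57.8% to 63.2% of those deposited, were left out.

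Symbols matched 56321 of 60483 identifiers. Coordinates are from RefSeq GRCh38.p14, the same build. Total RNA counts of 3 mut and 3 WT libraries were fitted in edgeR 4.0.16 (R 4.3.3, filterByExpr, TMM, glmQLFTest, two-sided, Benjamini-Hochberg at 0.05). Standard errors derive from the log2 fold change and F statistic. CPM values are library-scaled and not per length, so they do not compare numbers of molecules between genes. DESeq2 1.42.0 and limma 3.58.1 served alternatives. Small RNA was fitted likewise on fragment counts, with the totals behind the deposited FPM signal as library sizes. A let-7 feature was named where its ends lay within 5 nt of the RefSeq hairpin (6 features), or where it held the hairpin with at most 20 nt beyond it (6 more, a rule added after seeing the data). The edgeR step was tested on simulated data.

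Named genes are the 9 genes, up to 4 per direction of each list with the smallest adjusted p among those past the test, the nearest tested protein-coding gene on each side, and the 3 genes most correlated with LIN28B and with HMGA2. MYC, SYNCRIP, LINC01465, the named marker genes and list genes short of the test were named after their values were seen. Genes and lists were chosen with earlier results of these data known. A result for 1 list gene is not reported here.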

Additional observations from a re-analysis of the deposited data

How the results depend on the processing

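Alternatives were DESeq2's size factors, the DESeq2 test, no filter, a filter of at least 50 counts in 3 libraries (which left MIRLET7IHG untested), the replicate block, removal of the span trend and leaving out each library. Of the 9 genes, 1 was higher under every one of them, and 5 were lower with edgeR against 2 in DESeq2 and 2 to 4 with a library left out. All tested genes gave 1205 higher and 1255 lower in DESeq2, and 1327 to 1832 higher and 1274 to 2109 lower with a library left out. With a library left out, 3 to 7 other targets, 3 to 6 regulators, 0 to 1 other hosts and 1 to 2 IGF axis genes were lower. IGF axis genes numbered 1 higher in DESeq2 and 1 lower with the span trend removed. Mut and WT libraries of the same number did not deviate together (correlations −0.089, −0.073 and 0.032), so the number was not taken as a pairing. The replicate block gave 1675 higher and 1845 lower genes, 4 of the 9 genes lower, MIRLET7BHG at −0.25, SYNCRIP at −0.17 and SENP2 at 0.22 with edgeR adjusted p = 0.064, 0.0797 and 0.0661, and 1 IGF axis gene lower. Only genes short of the test changed sign. With the span trend removed IGF2BP2 was at 0.0248, MSRB3 at 0.0445 and HUWE1 at 0.0621, and with no filter PPM1H was at −0.00137. With a library left out, the range was −0.304 to 0.0167 for MIRLET7A1HG, −0.218 to 0.00953 for MALSU1, −0.0907 to 0.0411 for MSRB3, −0.0168 to 0.0448 for PPM1H, −0.0576 to 0.0327 for HUWE1, −0.165 to 0.0131 for SPACA6, −0.0802 to 0.0386 for SNF8, −0.0378 to 0.128 for TRA2A and −0.267 to 0.0237 for ZNF169. The cause of these changes was not tested. Leaving out libraries from the let-7 ratios was chosen after seeing the data. Depth limits the let-7 features, none of which passed the count filter, and MIRLET7IHG, with at most 39 counts in a library.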
